A study of Mus musculus with 96 samples.

Results

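Adult neurogenesis, the production of neurons after birth, was followed here through 9 genes: Sox2, Nes, Eomes, Neurod1, Dcx, Sox11, Igfbpl1, Draxin and Calb2. They were taken by symbol from a table of 22709 mouse genes, and all 9 were present. The rule names the genes and sets no threshold on a measured value, but the set was drawn up with earlier results of these data known. In the dentate gyrus of the adult hippocampus, radial glia-like stem cells give rise to intermediate progenitors, then to neuroblasts, and finally to granule neurons. In the wall of the lateral ventricle, a separate stem cell niche sends neuroblasts forward to the olfactory bulb. Transcripts of neuroblasts are therefore read as a sign of this process, although several of the 9 genes are also made by mature neurons or glia.

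The mice were labelled as maternal immune activation (MIA), an inflammation of the dam during pregnancy, or as saline injection. Their second label was either control or PLX5622 (PLX, labelled Plexxikon), an inhibitor of the receptor CSF1R on which microglia depend for survival. The design text says that it was injected so that the microglial population would be renewed. Bulk messenger RNA was sequenced from hippocampus and from prefrontal cortex of females and males, which gives 8 groups per tissue and 96 libraries. Each group held 6 libraries, except the MIA control groups, with 7 libraries from females and 5 from males in each tissue. Genotype, strain, age, litter, the immune stimulus, what the controls received and the interval between inhibitor and dissection are not stated in the labels. Nothing in the labels ties the numbered libraries to litters or says how tissue was dissected, so the p-values below measure the spread between these libraries. Values are read counts per gene that the authors scaled between libraries, called normalized counts. They are not scaled for gene length, so levels are compared between libraries and not between genes.

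Libraries held between 22234569 and 26689351 counted reads in hippocampus and between 22752437 and 25928320 in prefrontal cortex. In both tissues a set of libraries stood apart in the share of counts from 88 ribosomal protein and 87 respiratory chain genes. That share was 1.29 to 1.48% in 14 hippocampal libraries and 0.921 to 1.14% in the other 34. Of the 14, 12 were among the 24 control libraries and 2 among the 24 PLX libraries, so this difference and the inhibitor are partly confounded. In prefrontal cortex 16 libraries stood apart, 14 of them controls, and they carried all 14 of the hippocampal labels. Hippocampal region markers summed to between 39787 and 61126 in hippocampus and to between 8259 and 14233 in prefrontal cortex, with no overlap.

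The stem cell genes Sox2 and Nes were present in every library. Sox2 encodes a transcription factor that maintains neural stem cells and is also made by astrocytes, and Nes encodes nestin, an intermediate filament of stem cells and of some vascular cells. The lowest, median and highest Sox2 counts over the 48 hippocampal libraries were 554, 693 and 982. For Nes they were 166, 281 and 468. These genes were the pair whose counts moved together most closely in the hippocampal libraries that did not stand apart. The sequences before their start sites are therefore shown. They come from RefSeq (build GRCm38.p6, plus strand, each stopping before the first annotated start), which had a window for 7 of the 9 genes.
Sox2, chr3:34649745-34649994: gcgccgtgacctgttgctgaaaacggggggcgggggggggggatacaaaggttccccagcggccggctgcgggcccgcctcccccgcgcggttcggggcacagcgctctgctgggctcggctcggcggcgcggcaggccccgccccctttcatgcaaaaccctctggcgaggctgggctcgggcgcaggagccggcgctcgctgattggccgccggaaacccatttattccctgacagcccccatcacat
Nes, chr3:87970843-87971077: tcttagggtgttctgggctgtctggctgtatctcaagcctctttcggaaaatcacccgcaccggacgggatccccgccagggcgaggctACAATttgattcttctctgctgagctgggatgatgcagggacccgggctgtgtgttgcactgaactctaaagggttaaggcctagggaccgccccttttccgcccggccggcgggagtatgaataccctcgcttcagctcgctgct
Capitals mark ACAAT, 1 form of the core sequence that SOX proteins bind, searched on both strands (ATTGT on the other). ACAAT occurred 1 time in the Nes window of 235 bases and 0 times in the Sox2 window of 250 bases, and 26.75% of 32851 promoter windows cut to 235 bases held it. Other forms, such as ACAAA, were not searched, and the Sox2 window holds those letters. The count of ACAAT therefore does not say which window holds a SOX site. The E-box CANNTG, read by NEUROD1-type factors and the same on both strands, occurred 0 times in either window, against 64.14% of windows of 235 bases and 66.22% of windows of 250 bases. A match is a description of these letters only.

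Across the 34 hippocampal libraries that did not stand apart, Sox2 and Nes deviated together from their group means. Pearson's r was 0.63 and Spearman's rho 0.65, with adjusted permutation p = 0.0014 and 0.0011 over the 36 pairs of genes, and r was 0.60 without the 2 libraries farthest from the median of Sox2. Eomes and Calb2 were the other pair past the threshold, with r = 0.53 and rho = 0.58 (adjusted permutation p = 0.025 and 0.0054), and r = 0.47 without the 2 farthest libraries. Igfbpl1 and Draxin followed at r = 0.48 (adjusted permutation p = 0.052). The permutations shuffled deviations from group means as if they were independent, which they are not, so these p-values are too small. Eomes with Calb2, near the threshold by r, may therefore not pass. Dcx, the gene used most often to mark neuroblasts, had no r above 0.27 with any of the other 8 genes in these libraries. Within the libraries that stood apart, 12 could be used and 0 of the 36 pairs passed. There r was 0.29 for Sox2 with Nes (-0.08 without the 2 farthest libraries) and 0.71 for Eomes with Calb2 (0.58 without them).

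**Figure D1:**
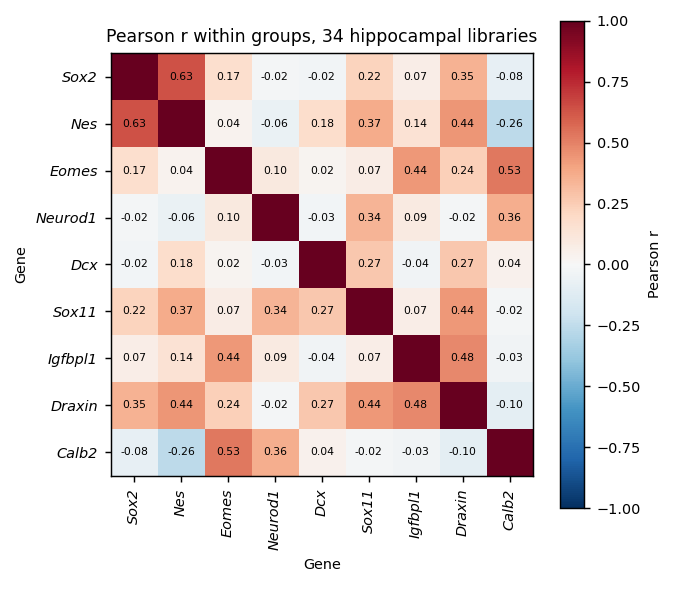
Pearson's r between the 9 genes (rows and columns) over 34 hippocampal libraries, computed on log2(normalized count + 1) minus the group mean, with blue for negative and red for positive r. Sox2 with Nes (0.63) and Eomes with Calb2 (0.53) are the strongest pairs, and the row of Dcx stays at or below 0.27.

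The neighbours of each gene across the same 34 libraries were taken as the 3 genes with the highest r of deviations from group means. For Sox2 they were Cldn5 (r = 0.80), a tight junction protein of brain endothelium, Pou3f3 (0.78), a POU-domain transcription factor, and Id3 (0.74). For Nes they were Ifnar1 (0.83), a receptor subunit for type I interferon, Cd93 (0.80), an endothelial surface protein, and Ccdc190 (0.80). Nes also followed the summed markers of endothelial cells and pericytes (r = 0.50, rho = 0.55, adjusted permutation p = 0.034 and 0.023 over 36 relations). Sox2 with the summed markers of oligodendrocyte precursors passed by rank only (rho = 0.54, adjusted permutation p = 0.023), with r = 0.45 (adjusted permutation p = 0.064). Draxin, which encodes a secreted axon guidance protein, had Sox4 as its first neighbour (r = 0.70), and Sox4 is a close relative of Sox11 that also acts in immature neurons. For Neurod1 the first neighbours were the cadherin Cdh9 (0.83), Zfpm2 (0.80) and the protocadherin Pcdh20 (0.75), and for Dcx they included Hdx (0.87) and Cd46 (0.85). Neurod1 and Igfbpl1 both followed the summed markers of dentate granule cells (r = 0.52 and 0.50, adjusted permutation p = 0.034 for both). Spearman's rho was 0.49 for Neurod1 and 0.45 for Igfbpl1 (adjusted permutation p = 0.043 and 0.081), so the relation of Igfbpl1 did not pass by rank. Without the 2 farthest libraries, r was 0.46 and 0.33. Dcx went the other way with the same sum and did not pass (r = -0.37, adjusted permutation p = 0.18). In the libraries that stood apart, of which 12 could be used, r with this sum was -0.05 for Neurod1 and -0.23 for Igfbpl1. The permutation p-values for marker sums, also those for Nes and Sox2, came from the same shuffling of deviations and are too small. Relations near the threshold may therefore not pass. The neighbours of Sox11 were Cnot6 (0.77), Pdik1l (0.72) and Ipcef1 (0.72), those of Igfbpl1 were Rasgrp1 (0.68), Arsj (0.67) and Slc25a45 (0.66), those of Calb2 were Syt6 (0.72), Scn9a (0.68) and Vgll3 (0.68), and those of Eomes were Efcab7 (0.69), Qrfprl (0.66) and Zfp947 (0.64).

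The first question of the design is whether the CSF1R inhibitor altered these genes in hippocampus, averaged over sex and prenatal treatment. Of the 9 genes 1, Sox11, changed. SOX11 is a transcription factor that switches on neuronal genes in newborn neurons. In saline females Sox11 had lowest, median and highest counts of 522, 621 and 729 in controls and of 432, 708 and 780.2 under PLX. In saline males the values were 381, 572 and 631 in controls and 588, 662 and 725 under PLX. In MIA females they were 517, 668 and 799 in controls and 684, 754 and 1019 under PLX. The 5 MIA control males gave 497, 552, 578, 608 and 676, against 626, 637 and 709 for the lowest, median and highest of the MIA PLX males. Medians were higher under PLX in all 4 pairs, and the groups overlapped in all 4.

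Sox11 was 15.4% higher under PLX (95% interval 6.52 to 24.9%), a log2 difference of 0.21 ± 0.06 (SE) with adjusted p = 0.0057 in limma over 24 control and 24 PLX libraries. In that comparison 40.0% of the 19938 genes tested passed in either direction, so 1 of 9 is below the share over all genes. The inhibitor and the libraries that stood apart moved together. With a term for those libraries the difference was 0.16 (adjusted p = 0.24), and without them it was 0.16 (adjusted p = 0.43). In those fits 75 and 9 genes passed in all (0.376% and 0.0451%), and 0 of the 9 genes. Sox11 itself differed by -0.12 ± 0.07 on the log2 scale between the libraries that stood apart and the rest.

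Dcx encodes doublecortin, a microtubule protein of migrating neuroblasts. It had a difference of similar size under PLX, 0.22 ± 0.10 on the log2 scale, that did not pass (adjusted p = 0.084). The lowest, median and highest hippocampal counts were 313, 580.0 and 1002 in controls and 416, 703 and 893 under PLX. Between the libraries that stood apart (313, 470.1 and 564) and the rest (452, 715 and 1002) the difference was larger, -0.66 ± 0.09 with the term fitted. Among the libraries that did not stand apart, the 12 controls had a median of 758 and the 22 PLX libraries a median of 709. With the term for the libraries that stood apart, the inhibitor's log2 difference for Dcx was -0.07 (adjusted p = 0.72). The positive difference of Dcx in all libraries therefore changed sign once this split of the libraries was taken into account, and neither value passed the test.

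The stem cell genes had negative differences under PLX that did not pass. For Nes the lowest, median and highest counts were 215, 291 and 468 in controls and 166, 270.5 and 369 under PLX, a log2 difference of -0.17 ± 0.07 (adjusted p = 0.053). For Sox2 they were 592, 734 and 982 in controls and 554, 639.7 and 932 under PLX, a difference of -0.12 ± 0.06 (adjusted p = 0.079). With the term for the libraries that stood apart these were -0.12 (adjusted p = 0.48) and -0.12 (adjusted p = 0.37). Nes sat next to the call threshold: it passed when genes with a mean count under 50 were left out, in DESeq2 and with another scaling (TMM).

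The remaining 5 genes showed smaller or wider differences. NEUROD1, a transcription factor of late progenitors and young granule neurons, differed by 0.06 (95% interval -0.01 to 0.13), the narrowest interval of the 9. EOMES, also called TBR2, marks intermediate progenitors, and its difference of -0.01 had an interval of -0.37 to 0.34. Its counts were low in hippocampus, 4.10 to 31.2 with a median of 10.97, and reached 10 in 26 of 48 libraries. Igfbpl1, a secreted protein gene of neuroblasts, differed by 0.14 ± 0.14, Draxin by 0.17 ± 0.12 and Calb2 by -0.09 ± 0.08. Calb2 encodes calretinin, a calcium-binding protein found in young granule neurons, mossy cells of the hilus and some interneurons. Its counts were higher in the libraries that stood apart (0.30 ± 0.09 on the log2 scale), the opposite of Dcx and Eomes (-0.49 ± 0.22).

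**Figure D2:**
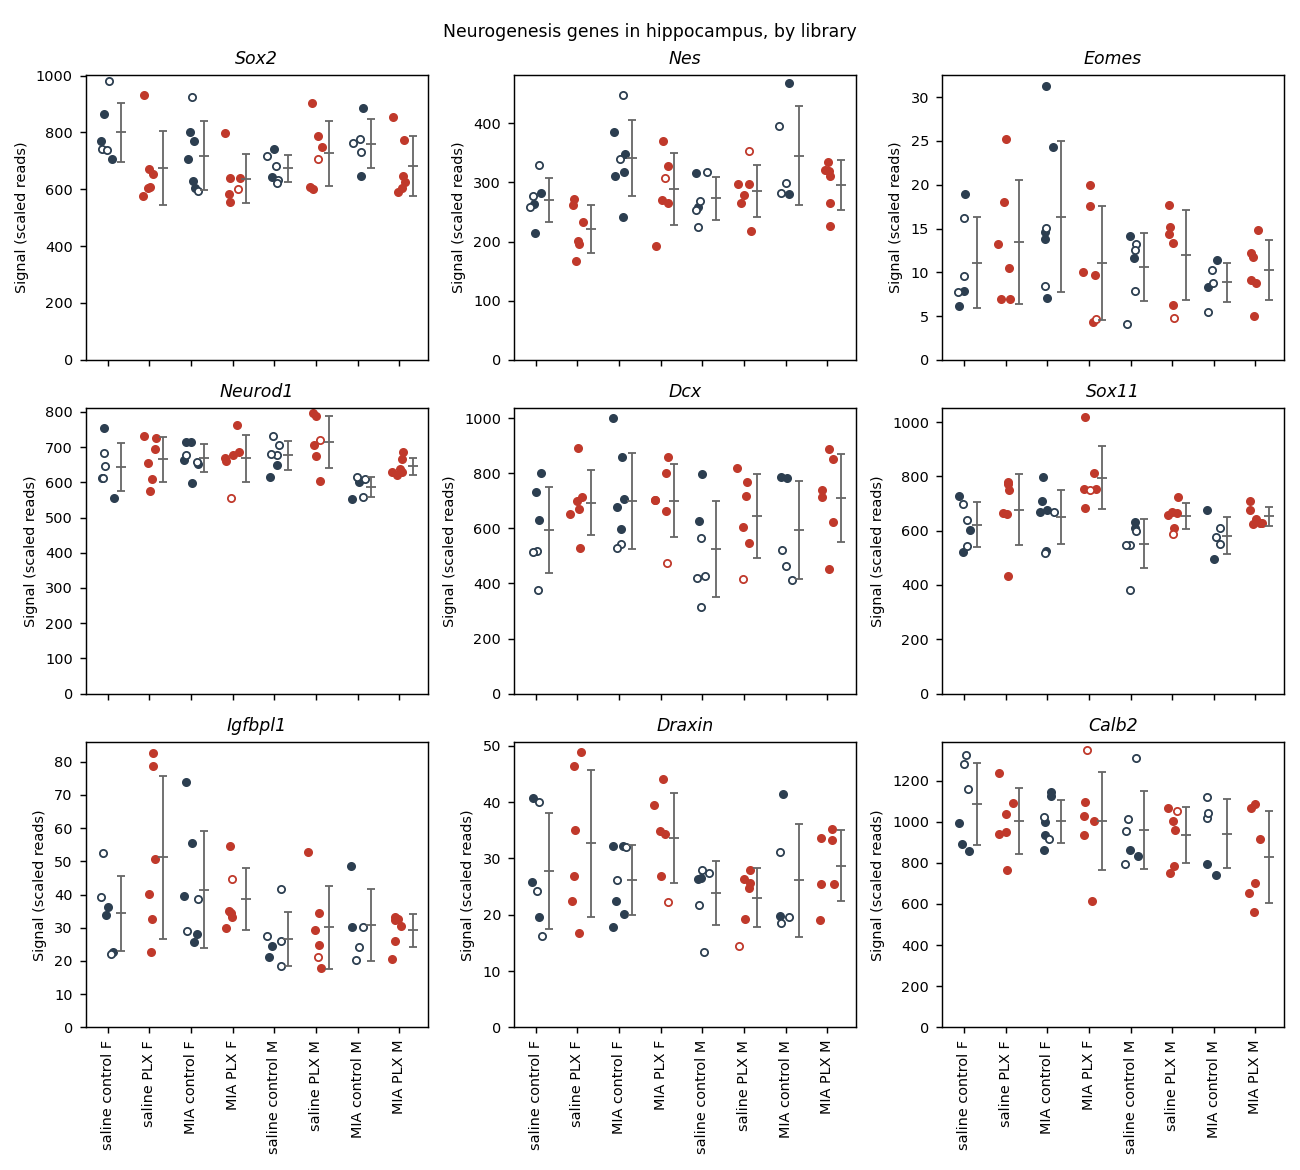
Normalized counts (vertical axes, from 0) of the 9 genes in the 8 hippocampal groups, with 1 point per library, open points for libraries that stood apart, and the bar at the right of each group for the mean and SD. Red marks PLX and dark blue control. The open points of Dcx lie between 313 and 564, while filled points reach 1002.

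Other genes of the same steps did not move in 1 direction under PLX. Of 22 further genes of neuroblasts and immature neurons, 1 was higher (Prox1, 0.34) and 6 were lower, among them Stmn1 (-0.33), Tubb3 (-0.18) and Marcksl1 (-0.19). Their median log2 difference was 0.01, against 0.00 over all genes tested, of which 20.8% were higher and 19.2% lower. Stmn1 and Tubb3 act in the microtubule skeleton, and PROX1 specifies granule neurons and stands in both this list and the next. Of 18 markers of dentate granule cells, 8 were higher and 0 lower, with Dock10 (0.33), Glis3 (0.38) and Pdzd2 (0.53) having the smallest p, and a median of 0.10. Of 17 further stem cell genes tested, 1 was higher (Notch1, 0.32) and 4 lower (Fabp7 -0.39, Hopx -0.18, Hes5 -0.24 and Pax6 -0.11). Of 13 further genes of intermediate progenitors, 2 were higher (Ccnd2 0.17 and Mki67 0.35) and 2 lower (Btg2 -0.34 and Insm1 -0.19). With the term for the libraries that stood apart, 0 genes of these 4 lists passed.

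Signals of the niche were counted the same way. Of 33 genes of WNT, BMP, Hedgehog, Notch, growth factor and chemokine signalling that were tested, 9 were higher under PLX and 2 lower. Igf1r (0.33), a growth factor receptor, Ptch1 (0.22) and Gli2 (0.31), of the Hedgehog pathway, and Ntrk2 (0.20), the receptor for BDNF, had the smallest p. Igf1r was the gene of that list still called with the term for the libraries that stood apart. Of 16 microglial genes 9 were lower and 0 higher, with differences of -0.47 for Fcrls and -0.27 for P2ry12. The gene of the targeted receptor, Csf1r, had a difference of -0.11 (adjusted p = 0.0086). With the term for the libraries that stood apart, 3 of the 16 were lower and 1 higher. The summed microglial markers ran from 11017 to 17634 in controls and from 10800 to 13156 under PLX, and their part in the differences of the 9 genes was not tested. Of 14 endothelial and pericyte genes, whose sum Nes followed, 1 was higher and 3 were lower, Cldn5 with -0.39. Of 15 interneuron genes, 1 was higher and 8 were lower, Pvalb with -0.38. Over all genes tested 20.8% were higher and 19.2% lower, and with the term for the libraries that stood apart 0 genes of these last 2 lists passed. In bulk tissue, fewer cells of a type and less RNA per cell cannot be told apart.

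The second question is whether MIA altered the genes. In hippocampus 0 of the 9 genes passed in limma, where 0% of 19938 genes were called. At an unadjusted p under 0.05, 1 of the 9 passed, against 4.76% of all genes. In edgeR and DESeq2 0 of the 9 genes passed as well. The gene under the unadjusted threshold was Nes. In saline offspring its lowest, median and highest hippocampal counts were 166, 264 and 353, and in MIA offspring 192, 314 and 468. The difference was 20.3% (95% interval 9.04 to 32.8%), or 0.27 ± 0.07 on the log2 scale, with adjusted p = 0.42. In prefrontal cortex Nes differed by 0.24 ± 0.08 (adjusted p = 0.62), with medians of 294 and 353. The sign was positive in all 4 hippocampal pairs of groups, from 0.06 to 0.37. Without the libraries that stood apart the hippocampal difference was 0.29 (adjusted p = 1.0), and over all alternatives the adjusted p ran from 0.17 to 1.0.

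The other 8 genes gave MIA differences between -0.09 and 0.15 in hippocampus. Neurod1 had its lowest counts in the MIA control males, 553, 559, 601, 609 and 614, against 615, 679 and 733 for the lowest, median and highest of the saline control males. Those groups did not overlap, but the lowest saline value lay within 1 count of the highest MIA value. How many of all genes lacked overlap in this pair of groups was not counted. In females the MIA control values (599, 663 and 716) overlapped those of saline controls (556, 629.7 and 754). The MIA effect on Neurod1 in females minus that in males was 0.21 ± 0.07, with limma's adjusted p = 1.0. In that comparison 0 of the 9 genes were called against 0.00502% of all genes, and at an unadjusted p under 0.05 the counts were 1 of 9 and 4.08%. Across the 4 hippocampal group pairs the MIA differences ran from 0.01 to 0.24 for Dcx, from 0.00 to 0.25 for Sox11 and from -0.20 to -0.02 for Calb2, with 0 of these called.

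Whether the inhibitor's effect depended on prenatal treatment was asked with the interaction of MIA and PLX. In limma 0 of the 9 genes passed in females or males, and 0% of all genes in both. At an unadjusted p under 0.05, 0 of the 9 passed in either sex, against 2.86% of genes in females and 2.13% in males. In females the widest interaction was that of Eomes, -0.80 ± 0.50, with control and PLX medians of 8.71 and 11.9 after saline and of 14.6 and 9.83 after MIA. Igfbpl1 followed at -0.52 ± 0.38. Sox11 gave 0.19 ± 0.16, with an interval from -0.13 to 0.50. PLX effects of females minus males lay between -0.32 and 0.21, with 0 of 9 called and 0% over all genes (0 of 9 and 4.94% at an unadjusted p under 0.05).

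**Figure D3:**
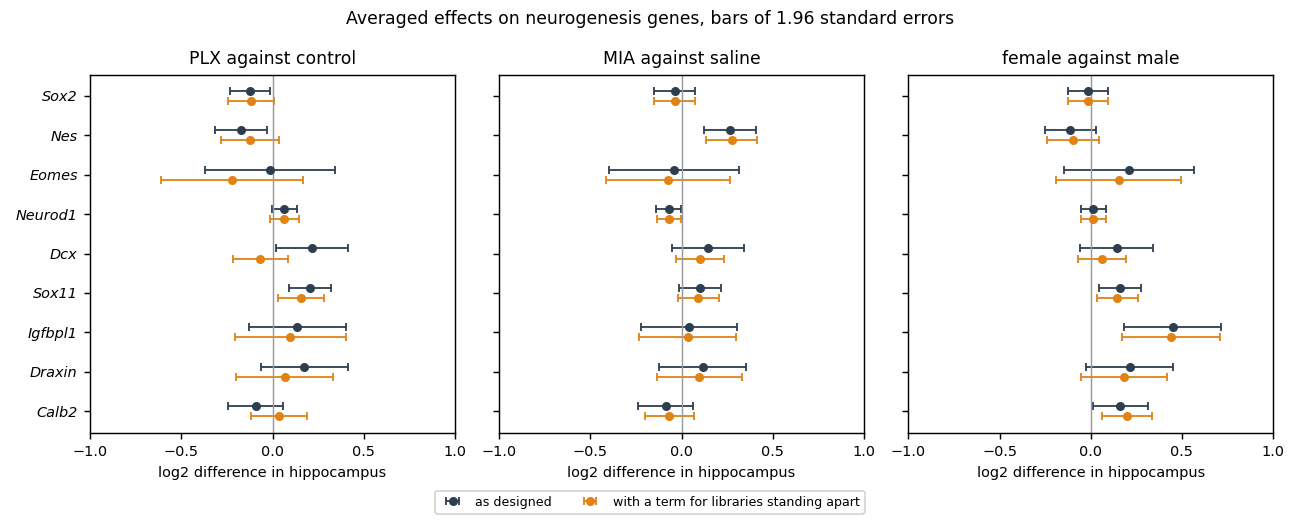
Log2 differences in hippocampus (horizontal axes) of the 9 genes for PLX against control, MIA against saline and female against male, each averaged over the other factors, with bars of 95% intervals. Dark points are the fit as designed and orange points the fit with a term for the libraries that stood apart. Dcx moves from 0.22 to -0.07 in the left panel, while Nes stays near 0.27 in the middle panel.

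Sex was compared over 25 female and 23 male hippocampal libraries, where 0.246% of genes passed and 0 of the 9. Igfbpl1 had the widest difference: the lowest, median and highest counts were 22.2, 36.1 and 82.6 in females and 17.8, 27.5 and 52.9 in males. This was 36.7% higher in females (95% interval 13.7 to 64.3%), a log2 difference of 0.45 ± 0.14 with adjusted p = 0.22. At an unadjusted p under 0.05, 3 of the 9 genes passed against 7.85% of all genes, and in edgeR and DESeq2 0 of 9 passed after adjustment. After Igfbpl1 these were Sox11, with 0.16 ± 0.06 (adjusted p = 0.42), and Calb2, with 0.16 ± 0.08 (adjusted p = 0.60). In prefrontal cortex the sex difference of Igfbpl1 was 0.04 ± 0.16 and that of Sox11 -0.03 ± 0.05, with 0 of 9 called against 0.141% of genes (1 of 9 and 6.05% at an unadjusted p under 0.05).

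Prefrontal cortex served as the reference, a region without a neurogenic niche of its own. Against it, hippocampus was lower in Dcx, Eomes, Igfbpl1 and Nes and higher in Neurod1, and 5 of the 9 genes passed where 65.9% of 20620 genes did (35.3% higher and 30.6% lower). The lowest, median and highest Neurod1 counts were 553, 662 and 798 in hippocampus and 221, 282 and 345 in prefrontal cortex. The tissues did not overlap, and Neurod1 was 2.37-fold higher in hippocampus (log2 1.24 ± 0.03, adjusted p = 5.6e-60). Dcx went the other way: 313, 668 and 1002 in hippocampus and 783, 1792 and 3680.4 in prefrontal cortex, or 2.69-fold lower in hippocampus (log2 -1.43 ± 0.10, adjusted p = 1.4e-24). It was higher in prefrontal cortex under all 48 shared labels, and 6 of the 8 group pairs did not overlap. How many of all genes separated the tissues as fully was not counted. The overlaps and label counts of Neurod1, Dcx and Eomes therefore describe these genes only.

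Eomes differed most. Its counts ran from 4.10 to 31.2 in hippocampus (median 10.97) and from 3.22 to 679 in prefrontal cortex (median 225), a log2 difference of -3.64 ± 0.26 (adjusted p = 1.9e-22). It was higher in prefrontal cortex under 46 of 48 labels. Igfbpl1 was 1.59-fold lower in hippocampus (log2 -0.67 ± 0.10, adjusted p = 2.7e-08), with medians of 32.4 and 54.7, and Nes was 1.14-fold lower (-0.19 ± 0.05, adjusted p = 0.0016). Sox2 gave 0.00 ± 0.04 and Sox11 -0.06 ± 0.04, with intervals of -0.08 to 0.08 and -0.14 to 0.02. Calb2 gave -0.23 ± 0.14 (adjusted p = 0.13) and Draxin 0.16 ± 0.08 (adjusted p = 0.058), and both of these passed in edgeR and DESeq2. The p-values between tissues treat libraries with the same label as unlinked. With the label as a block, Draxin passed in limma too.

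**Figure D4:**
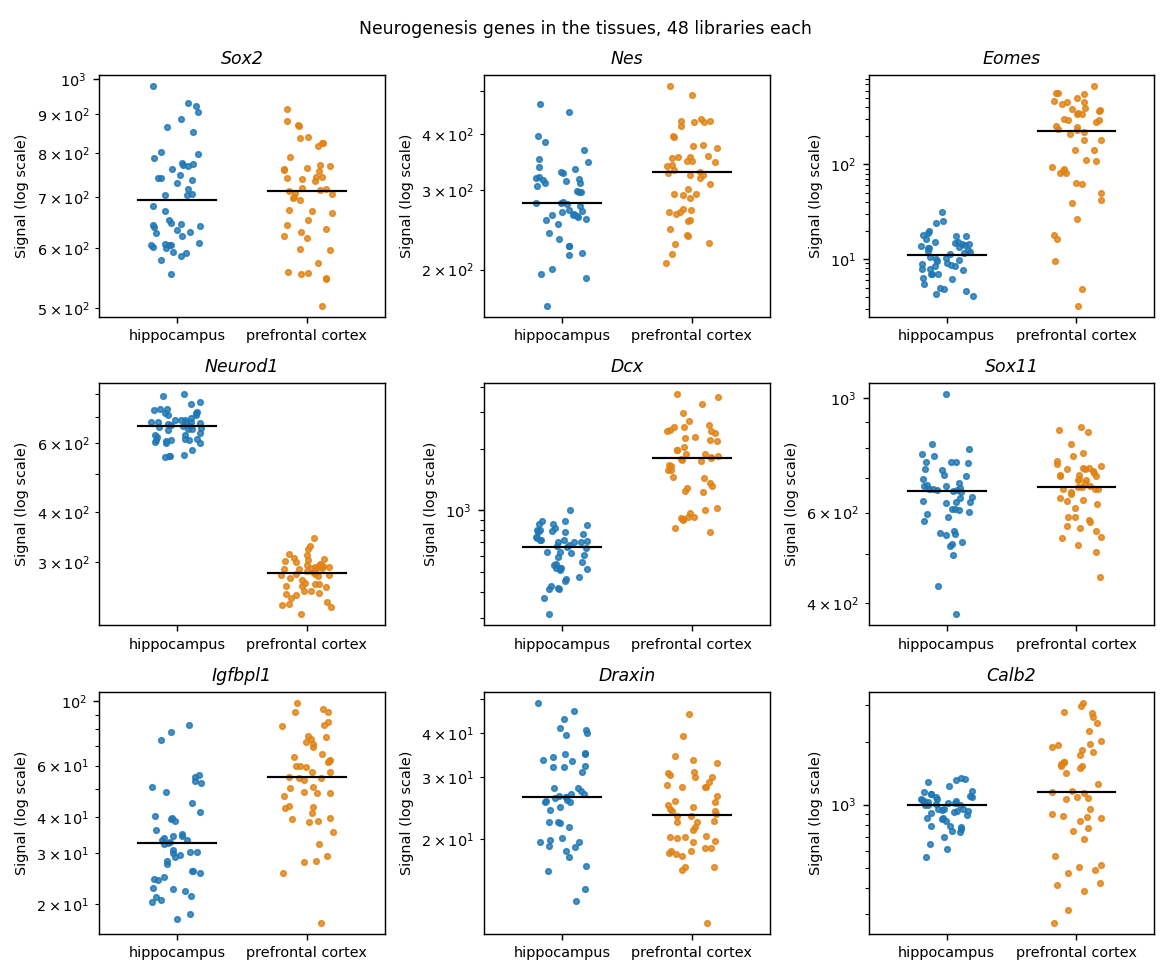
Normalized counts (log scale) of the 9 genes in 48 hippocampal and 48 prefrontal cortex libraries, with 1 point per library and a line at the median. Neurod1 separates the tissues (553 to 798 against 221 to 345), and Eomes and Calb2 spread most widely in prefrontal cortex (3.22 to 679 and 272 to 3079).

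In prefrontal cortex, markers of the olfactory bulb moved with these genes. The bulb lies next to the prefrontal cortex and receives neuroblasts throughout life. Its mitral and tufted cells make EOMES, and its interneurons make calretinin. A list of 10 bulb genes (Cdhr1, Tbx21, Doc2g, Omp, Th, Slc6a3, Lbhd2, Trh, Sp8 and Scgn) was drawn up after the spread of Eomes had been seen. Their summed counts ran from 626 to 7597 in prefrontal cortex, with a median of 3043, a 12.1-fold span, and from 393 to 661 in hippocampus. Single markers behaved alike: Omp, of olfactory sensory axons, ran from 4.1 to 488 and Th, of dopamine-making cells, from 74.2 to 1012 in prefrontal cortex. The sum ran from 626 to 7597 in prefrontal cortex controls (median 2474) and from 721 to 6805 under PLX (median 3206), so these overlapped.

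The counts of 4 of the 9 genes followed this sum. How many of all genes followed it was not counted, so this describes the 9 genes only. Given as a description with no test, Pearson's r of deviations from group means over 31 libraries that did not stand apart was 0.997 for Calb2, 0.986 for Eomes, 0.895 for Dcx and 0.835 for Igfbpl1. Over 14 libraries that stood apart it was 0.995, 0.975, 0.847 and 0.744. The points share their library and its depth. For Sox11, Nes, Sox2, Draxin and Neurod1 it lay between -0.16 and 0.44 in both sets. The library with the lowest sum, a saline control male (626), had 3.22 counts of Eomes, 313 of Calb2, 895 of Dcx and 39.7 of Igfbpl1. The library with the highest sum, an MIA control male (7597), had 679, 2765, 3680.4 and 98.9. In the first of these libraries Eomes and Calb2 were below every hippocampal library, while Dcx was within the hippocampal range. A list of neuroblasts of the ventricular wall and olfactory stream, which shares Sp8 with the bulb list, gave r of 0.90 for Dcx, 0.90 for Eomes, 0.94 for Calb2 and 0.81 for Igfbpl1 over the same 31 libraries. Striatal projection neuron markers varied as well, from 6398 to 42947, with negative r for Dcx (-0.77), Calb2 (-0.69), Eomes (-0.65) and Igfbpl1 (-0.53). The part of these neighbouring regions in the tissue differences of Dcx, Eomes, Igfbpl1, Calb2 and Neurod1 was not tested. Neurod1, which separated the tissues in the other direction, had r = 0.24 with the bulb markers and -0.41 with the striatal markers.

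**Figure D5:**
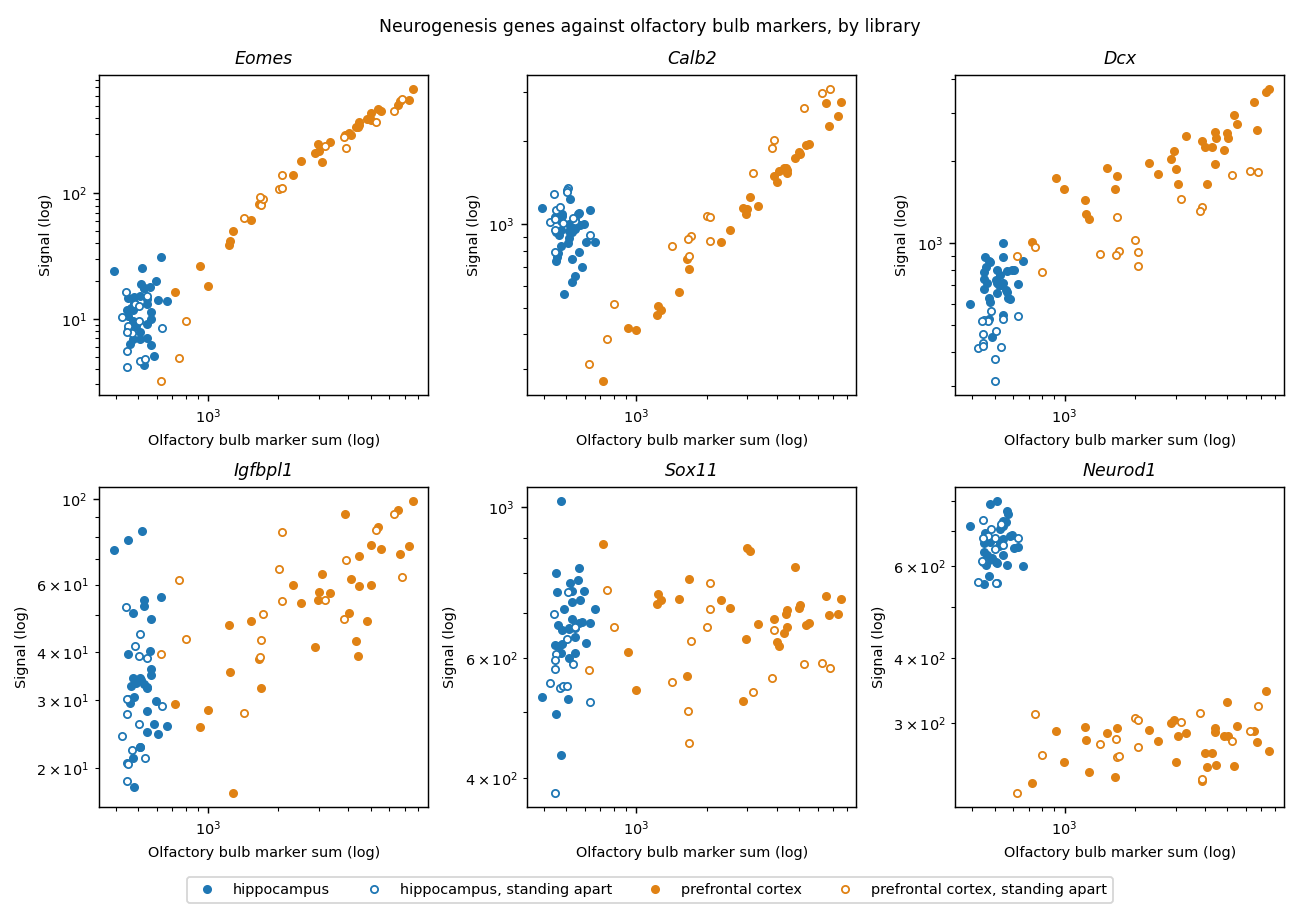
Normalized counts of 6 of the genes (vertical axes, log scale) against the summed counts of 10 olfactory bulb markers (horizontal axes, log scale), with 1 point per library, blue for hippocampus, orange for prefrontal cortex and open points for libraries that stood apart. In prefrontal cortex Eomes climbs from 3.22 to 679 along the axis, Calb2 and Dcx climb with it, and Sox11 and Neurod1 stay level.

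Within prefrontal cortex, the averaged inhibitor effect again called Sox11 alone of the 9 genes, where 37.8% of 19841 genes passed. The lowest, median and highest counts were 450.2, 644 and 755 in controls and 539, 710.0 and 881 under PLX, a log2 difference of 0.18 ± 0.05 (adjusted p = 0.0070 in limma). With the term for the libraries that stood apart it was 0.09 (adjusted p = 0.59), and without them 0.10 (adjusted p = 0.57). In those fits 0 of the 9 genes were called, against 0.242% and 0.312% of all genes. A term for the bulb markers left Sox11 at 0.18 (adjusted p = 0.0089 in limma). In that fit Calb2 was called as well, at -0.24 (adjusted p = 0.0016). Calb2 followed the bulb sum almost exactly (r = 0.997 in the libraries that did not stand apart), so the term removed most of its spread. The bulb list was also drawn up after these data were seen, so the call of Calb2 is not read as a PLX effect. With both terms, 0 of the 9 genes were called, and Sox11 stood at 0.09 (adjusted p = 0.54). The share of all genes called in these 2 fits is not reported here, so their counts describe the 9 genes only. The PLX effect on Sox11 in hippocampus minus that in prefrontal cortex was 0.02 ± 0.08 (interval -0.13 to 0.18). For this difference of PLX effects 0 of the 9 genes and 0% of all genes were called (0 of 9 and 2.67% at an unadjusted p under 0.05). For MIA 0 of the 9 genes passed in prefrontal cortex, where 0% of genes did, and 2 of the 9 passed at an unadjusted p under 0.05, where 5.96% did. These were Nes and Neurod1 (-0.12 ± 0.04). The MIA effects in hippocampus minus those in prefrontal cortex lay between -0.10 and 0.32 over the 9 genes, with 0 of 9 and 0% of genes called (0 of 9 and 2.13% at an unadjusted p under 0.05).

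The averaged effects were also taken group by group. For PLX against control in each of the 4 hippocampal pairs, 0 of the 9 genes passed, where 0.0301% of genes did in saline females, 0.00502% in MIA females, 0.0251% in saline males and 0.00502% in MIA males. At an unadjusted p under 0.05 the counts in the same order were 2, 1, 1 and 0 of 9, against 22.7%, 7.71%, 20.2% and 28.2% of genes. Sox11 was positive in 4 of 4 pairs (0.11 to 0.29), as was Dcx (0.01 to 0.33), and Calb2 was negative in 4 of 4 (-0.21 to -0.03). These fits held no term for the libraries that stood apart, 12 of the 24 controls and 2 of the 24 PLX libraries. On the log2 scale those libraries differed from the rest by -0.66 for Dcx, -0.12 for Sox11 and 0.30 for Calb2. The signs in the 4 pairs are therefore partly confounded with this split. Nes ran from -0.30 to 0.06 and Sox2 from -0.26 to 0.10, each positive in 1 of 4 pairs. For MIA against saline 0 of the 9 passed in any of the 4 pairs, with 0.00502% of genes called in control females and 0% in the other 3 pairs. At an unadjusted p under 0.05 the counts were 1 of 9 in control females (6.41% of genes), 2 in PLX females (2.74%), 2 in control males (2.38%) and 1 in PLX males (2.47%). Ordered by their medians, the 8 hippocampal groups ran for Sox11 from saline control males (572) to MIA PLX females (754). For Dcx they ran from saline control males (496) to MIA PLX males (727). For Nes they ran from saline PLX females (217) to MIA control females (339). These medians include the libraries that stood apart. Among saline control males, Dcx was 313 to 564 in those libraries and 629 and 796 in the others. Pairs of groups differing in 1 treatment did not differ beyond their spread by limma's adjusted test for any of the 9 genes.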

How the data were processed

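The deposited table holds, per the labels, normalized counts from stranded messenger RNA libraries. The submitters' processing notes name Trimmomatic, STAR 2.6.1d and the build GRCm39; no counting tool is named there. The authors' values are signal: read counts divided by 1 factor per library. All values returned to whole reads within 0.01, with 21 of 96 factors within about 1 percent of 1. After genes under the filter (signal of 10 or more, 5 or more libraries) were dropped, log2(signal + 1) was fitted with limma 3.58.1 (R 4.3.3), 1 fit of 8 groups per tissue and 1 of 16 groups for tissue differences, with Benjamini-Hochberg adjustment at 0.05. A fold change is on the log2(signal + 1) scale, which understates change at low counts. Intervals are 95% normal intervals. Libraries that stand apart were found by splitting each tissue's ribosomal and respiratory share at the exact 2-means boundary. Alternatives were pseudocounts of 0.5 and 5, no filter, a mean of 50, edgeR 4.0.16 and DESeq2 1.42.0 on recovered reads, TMM, the libraries that stand apart as a term or left out, a replicate block and each hippocampal library left out. Correlations used 100000 permutations within the libraries that stand apart and within the rest, both for each gene's deviations from its group means. The deviations were shuffled as if independent, so the permutation p-values are too small. All 9 genes are named whatever their result, with up to 4 genes of smallest p per list and 3 neighbours per gene, without predicted genes; 1 neighbour of Dcx is not reported here. Counts for lists leave out the 9 genes. The members and lists were chosen with earlier results of these data known, and the bulb list and its terms after seeing these data. On simulated counts for the inhibitor comparison over 19938 genes, 27 of 50 genes changed 1.25-fold, 46 of 50 changed 1.5-fold and 50 of 50 changed 2-fold were recovered, with 14 false calls. The simulated counts had the same setting of spread for every gene and held no libraries that stand apart. They check that the fit runs correctly and do not give its recovery or false calls in these data.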

Additional observations from a re-analysis of the deposited data

Results flagged for a closer look

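Of 144 groups of libraries (9 genes in 16 groups), 6 had a library set apart from the others of its group by Dixon's test; chance alone flags about 1 in 20 groups. In hippocampus, Sox11 was low in saline control male 5 (381.284, others 547 to 631) and in saline PLX female 1 (432.28, others 662 to 780.2). Sox2 was high in MIA PLX female 2 (798.609, others 554 to 641) and in saline PLX female 2 (931.847, others 577 to 671). In prefrontal cortex, Dcx was high in MIA control male 5 (3680.36, others 783 to 1577), the library with the highest olfactory bulb marker sum (7597). Neurod1 was low in saline control male 2 (220.954, others 287 to 314), the library with the lowest (626). The part of these libraries' tissue makeup in the values was not tested.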

How the results depend on the processing

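For the inhibitor in hippocampus, 1 of the 9 genes was called as designed. The count was 2 (Sox11 and Nes) with a mean filter of 50, in DESeq2 and with TMM scaling, and 0 with a term for, or without, the libraries that stand apart. Leaving out 1 library at a time gave 1 to 4 genes, and Sox11 was called in all 48 such fits (0.18 to 0.24). The count moved for 17 libraries. It was 4 without MIA control male 2. It was 3 without MIA PLX female 2 or 6, MIA PLX male 2 or 6, saline PLX female 2 or saline PLX male 5. It was 2 without MIA control female 3, MIA control male 3, 4 or 5, MIA PLX female 3, saline control female 3, saline control male 5 or 6, saline PLX female 6 or saline PLX male 4. In prefrontal cortex the count of 1 became 0 in the same 2 fits, 0 with both the apart and the bulb term, and 2 with the bulb term alone. For the tissues, leaving out libraries gave 5 to 6 genes, edgeR and DESeq2 7. Shares of all genes called are given above only for fits as designed and for fits that dealt with the libraries that stand apart. The 0 of 36 correlated pairs in the libraries that stand apart became 2 with the share held fixed. In the other 34 libraries the pairs passing by rank went from 2 to 5 with the share held fixed (adding Sox11 with Nes, Neurod1 with Calb2 and Nes with Draxin) and to 3 with a pseudocount of 5, while those passing by Pearson's r went from 2 to 3 in both (adding Igfbpl1 with Draxin). No other count of genes called moved by over 1.5 times, and no called value changed sign. The cause was not tested. The replicate block left Sox11 called in hippocampus (adjusted p = 0.0070) and prefrontal cortex (0.010), and made the tissue count 6 by adding Draxin (0.16, adjusted p = 0.023). The numbers were not taken as pairs: same-numbered libraries of other groups had a median residual correlation of 0.00 within hippocampus, while libraries with the same label in both tissues passed 0.1 in 42 of 48 cases (median 0.24, consensus correlation 0.376), with 20 of 48 matching their own label best.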

Other observations

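Choroid plexus and ependyma markers, which lie beside the dentate gyrus, varied widely between hippocampal libraries. Their summed counts ran from 1118 to 97524, an 87.2-fold span, with a median of 4985, and Ttr, the transthyretin gene made by choroid plexus, ran from 200 to 89354. In prefrontal cortex the same sum ran from 369 to 770.2. The median sum was 8594 in hippocampal controls and 3589 under PLX, and 10235 in the libraries that stood apart and 3807 in the rest. For PLX against control in hippocampus 0 of the 12 genes passed in limma, also at an unadjusted p under 0.05, where 40.0% of all genes passed after adjustment. Neurog2, a transcription factor of intermediate progenitors, ran from 11.1 to 57.7 in hippocampus (median 26.2) and from 0.96 to 19.0 in prefrontal cortex (median 5.1), an order of the tissues opposite to that of Eomes. Sox4 had the order of Dcx, with medians of 538 in hippocampus and 909.8 in prefrontal cortex.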
